A study of Mus musculus with 8 samples.

Results

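The miRNAs of Müller glia (MG) kept for 14 days in dissociated culture (14 days in vitro, 14DIV MG) were compared with those of MG taken directly from the retina at postnatal day 11 or 12 (P11 MG). The members are the 2 libraries of that comparison, of 6 pooled libraries in the series, and within them the mouse miRNAs of the NanoString nCounter panel. A miRNA was measured where its raw count exceeded the mean of the 8 negative controls plus 2 SD in at least 1 of the 2 libraries, and 202 of 566 mouse miRNAs met this rule. All mice carried Rlbp-CreER and a Cre-dependent tdTomato, which marks cells in which the Rlbp1 promoter has driven the recombinase. The 14DIV library was labelled as a pool of 20 P11 retinas in a split experiment. The cells were grown in Neurobasal medium with N-2, 10% fetal bovine serum and 100 ng/mL EGF and were passaged at 6 DIV. Nothing in the labels says that they were sorted. The P11 library was a pool of 32 retinas whose tdTomato+ cells were sorted after tamoxifen at 75 mg/kg on P9 and P10. Time in culture, the greater age of the cells, serum, EGF, passage and the lack of a sort therefore cannot be told apart from one another. The paper treats P11 cells after 14 DIV as matching adult MG in age. Each condition has 1 library, so no test was possible, and differences are given by their size and by their counting error, which leaves out the spread between animals and cultures.

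MG are the main glial cells of the retina and span its whole depth, and in mouse they rarely divide after the retina has formed. Mature miRNAs are short RNAs that guide Argonaute to messenger RNAs, and their seed, the bases 2 to 8 from the 5′ end, largely sets which messages they bind. Dissociated MG that are given serum and EGF spread, divide and lose features of the differentiated cell, which is why such cultures serve as a model of reactive or dedifferentiating glia. For its own cultures the paper states that proliferation ceased once the cells were passaged and that their density then fell.

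The age labels of both cultured libraries are the reverse of their titles, since the library titled 14DIV carries the age label of 8 DIV. The titles and the column names of the raw counts give the same days, and they were followed. Values of the library titled 8DIV are given beside the main results for this reason. In addition, the deposited normalized values of 16 miRNAs in the 14DIV library are unlike what their raw counts give, while none are in the P11 library. The raw counts were therefore used throughout.

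The raw counts of mouse miRNAs summed to 391133 in 14DIV MG and 484305 in P11 MG. The negative controls averaged 23.9 counts in 14DIV MG and 50.4 counts in P11 MG, so that a miRNA had to exceed 52.8 raw counts in 14DIV MG and 106 raw counts in P11 MG to be above background. With these limits 182 miRNAs were above background in 14DIV MG and 149 in P11 MG, of which 129 were above it in both, 53 in 14DIV MG only and 20 in P11 MG only. The higher limit in P11 MG bears on the 53. These 53 passed only through 14DIV MG and could not be called lower with equal totals, and the 20 passed only through P11 MG and could not be called higher. None of the 33 probes for viral miRNAs was above background in either library.

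Levels are given as shares, that is, the background-subtracted count as a percentage of all background-subtracted mouse miRNA counts of the library. A share at background is the floor of 0.00761% in 14DIV MG or 0.0120% in P11 MG, and a fold against it is a lower bound. Sums over several miRNAs use the background-subtracted counts without that floor. On this scale of equal totals 51 of 202 measured miRNAs (25.2%) were at least 2-fold higher in 14DIV MG and 38 (18.8%) at least 2-fold lower, while 113 lay between, with a median log2 ratio of 0.04 over all 202. The 51 higher miRNAs made up 52.6% of the counts of 14DIV MG and 12.9% of those of P11 MG. The 38 lower ones made up 19.1% in 14DIV MG and 58.5% in P11 MG. The remaining 113 held 27.9% of the counts in each library.

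The study scaled its values to 4 housekeeping mRNAs (Actb, B2m, Gapdh and Rpl19), and their summed counts were 1.5 times as high in 14DIV MG as in P11 MG. Under that scaling each log2 ratio is 0.87 lower than with equal totals. Then 27 miRNAs (13.4%) were at least 2-fold higher and 91 (45.0%) at least 2-fold lower in 14DIV MG, with a median log2 ratio of -0.83. The 4 mRNAs did not move together. B2m, the light chain of MHC class I, had 2934 raw counts in 14DIV MG and 629 in P11 MG, and Actb, the cytoplasmic actin, had 12624 and 9301. Rpl19, a ribosomal protein, had 1559 counts in 14DIV MG and 1090 in P11 MG, and Gapdh, a glycolytic enzyme, had 652 and 936. Of these 91, 18 were at background in P11 MG only, so that their ratio is a lower bound without a direction, which leaves 73. All 38 lower miRNAs stayed below a log2 ratio of 0 under the 9 other scalings tried. All 51 higher ones stayed above 0 under these scalings except B2m alone, under which 12 of the 51 did. For miRNAs high in adult MG, the paper states that the fall in culture held with housekeeping genes or a ribosomal RNA as normalizer. Scaling by a ribosomal RNA was not tried here.

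**Figure D1:**
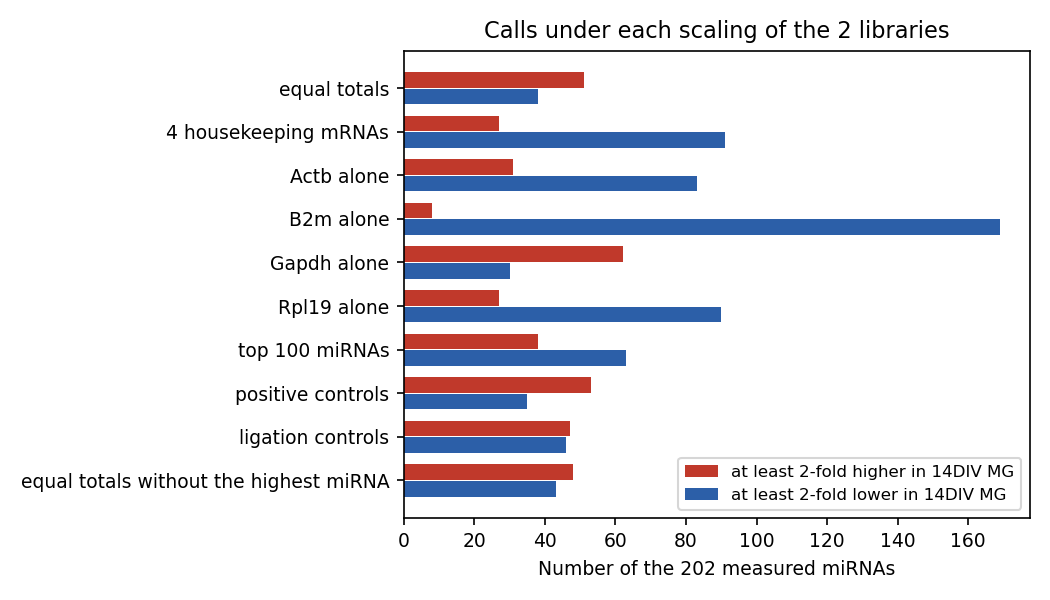
Number of the 202 measured miRNAs at least 2-fold higher (red) or lower (blue) in 14DIV MG than in P11 MG under each scaling of the 2 libraries. Equal totals give 51 higher and 38 lower, the 4 housekeeping mRNAs 27 and 91 (18 of them at background in P11 MG only), and B2m alone 8 and 169.

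The mature sequences of the miRNAs that carry the difference follow, 5′ to 3′, with the seed in capitals, so that members of a family can be recognised by their shared seed. Of the 202 measured miRNAs 153 were matched to RefSeq (GRCm38.p6), 46 by their exact name and the others through a table that assigns a panel name without an arm to the arm usually found. The first set holds miRNAs that were at least 2-fold higher in 14DIV MG.
miR-21a-5p: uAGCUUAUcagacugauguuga
miR-22-3p: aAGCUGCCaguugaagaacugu
miR-199a-3p: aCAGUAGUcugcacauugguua
miR-199a-5p: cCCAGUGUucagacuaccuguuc
miR-23a-3p: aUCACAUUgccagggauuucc
miR-24-3p: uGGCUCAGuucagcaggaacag
miR-27a-3p: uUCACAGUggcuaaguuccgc
miR-27b-3p: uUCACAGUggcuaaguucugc
miR-29a-3p: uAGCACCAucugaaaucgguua
miR-29b-3p: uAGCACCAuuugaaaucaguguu
miR-29c-3p: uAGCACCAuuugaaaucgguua
miR-34a-5p: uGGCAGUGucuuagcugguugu
miR-34b-5p: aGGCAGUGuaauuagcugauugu
miR-221-3p: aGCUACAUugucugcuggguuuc
miR-222-3p: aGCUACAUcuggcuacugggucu
miR-125a-5p: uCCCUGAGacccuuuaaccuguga
miR-125b-5p: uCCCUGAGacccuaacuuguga
The second set holds miRNAs with lower shares in 14DIV MG. All are at least 2-fold lower apart from miR-16, which is shown for its seed and was 1.79-fold lower. The panel reads miR-17 and miR-106a with 1 probe, and likewise miR-20a and miR-20b.
miR-9-5p: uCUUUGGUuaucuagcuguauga
miR-135a-5p: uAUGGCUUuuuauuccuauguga
miR-181a-5p: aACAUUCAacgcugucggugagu
miR-181c-5p: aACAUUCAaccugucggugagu
miR-17-5p: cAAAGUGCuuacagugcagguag
miR-20a-5p: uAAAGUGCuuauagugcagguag
miR-106a-5p: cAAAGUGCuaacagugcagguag
miR-20b-5p: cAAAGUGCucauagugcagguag
miR-93-5p: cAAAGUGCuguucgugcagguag
miR-15a-5p: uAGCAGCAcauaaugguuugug
miR-15b-5p: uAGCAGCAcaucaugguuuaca
miR-16-5p: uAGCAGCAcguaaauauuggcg
miR-322-5p: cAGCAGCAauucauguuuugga
The third set holds close relatives whose ratios differ.
miR-204-5p: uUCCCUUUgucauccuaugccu
miR-211-5p: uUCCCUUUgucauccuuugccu
miR-99a-5p: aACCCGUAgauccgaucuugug
miR-100-5p: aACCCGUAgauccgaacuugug
miR-99b-5p: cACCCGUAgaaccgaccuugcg

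The sequences make the families visible. Among measured miRNAs with a matched sequence, 20 seeds were shared by at least 2 miRNAs. In 9 of these groups some members were higher and none lower, in 7 some were lower and none higher, in 3 no member passed 2-fold, and 1 seed, ACCCGUA of miR-99a, miR-99b and miR-100, had members on both sides. Grouped by position instead, 33 sets of measured miRNAs lay within 10 kb of each other on the same strand, some of them sharing a mature miRNA or holding both arms of a hairpin. Of these sets 14 held at least 1 higher and no lower member, 14 at least 1 lower and no higher member, 5 no called member, and none held both. Members that passed neither limit stood in 7 sets of the first kind and 6 of the second. Over all 202 measured miRNAs 25.2% were higher and 18.8% lower. Members at background in P11 MG could not be called lower, and those at background in 14DIV MG could not be called higher. Every member was at background in P11 MG in the sets of miR-199a, miR-34b and miR-221 with miR-222. The same holds for the seeds GGCAGUG and GCUACAU. Such groups could be called only as higher.

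**Figure D2:**
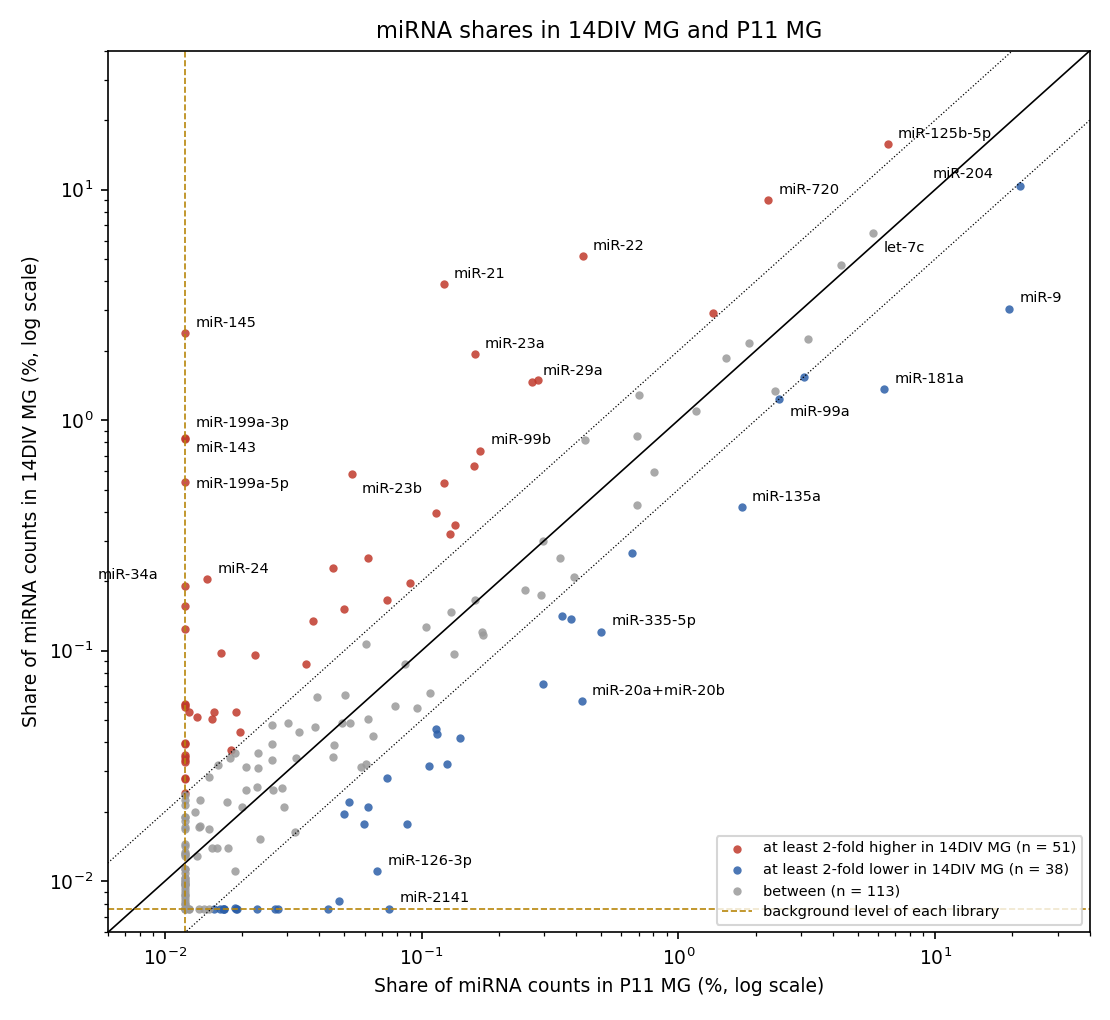
Share of miRNA counts of each of the 202 measured miRNAs in 14DIV MG (vertical, %, log scale) and in P11 MG (horizontal, %, log scale), with the 2-fold limits dotted and the background level of each library dashed. miR-145, miR-143 and both arms of miR-199a stand on the background line of P11 MG, while miR-9, miR-181a and miR-135a lie below the lower 2-fold limit.

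Both libraries were dominated by few miRNAs, and the order among them changed. The highest 6 miRNAs held 50% of the counts in 14DIV MG, against 4 in P11 MG, and 5 miRNAs were among the 10 highest of both. miR-125b-5p, the mammalian relative of the worm heterochronic miRNA lin-4, ranked 1 in 14DIV MG with 15.7% of the counts and 3 in P11 MG with 6.53%. Its raw counts were 59742 in 14DIV MG and 30204 in P11 MG, a 2.41-fold higher share (counting interval 2.36 to 2.46) that came to 1.32-fold with housekeeping scaling. miR-204, encoded within Trpm3 on chr19 and abundant in lens, pigmented epithelium and MG, ranked 2 in 14DIV MG with 39232 raw counts (10.3%) and 1 in P11 MG with 99116 (21.4%), 2.08-fold lower in 14DIV MG (2.04 to 2.11).

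miR-9, a regulator of neural progenitors encoded at 3 loci, had 11598 raw counts in 14DIV MG and 89452 in P11 MG. Its share was 3.05% in 14DIV MG, where it ranked 8, and 19.3% in P11 MG, where it ranked 2, a 6.35-fold lower share (6.19 to 6.51). Together miR-204 and miR-9 held 13.4% of the counts in 14DIV MG and 40.8% in P11 MG. miR-181a had 5203 raw counts in 14DIV MG and 29255 in P11 MG, or 1.36% and 6.32%, 4.64-fold lower (4.46 to 4.82). miR-181a is also an abundant miRNA of retinal neurons and made up 15.2% of the counts of the tdTomato-negative P11 fraction.

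Several miRNAs with low ranks in P11 MG stood near the top in 14DIV MG. miR-22, a broadly expressed miRNA, had 19591 raw counts in 14DIV MG and 2009 in P11 MG, ranking 5 and 24, and was 12.2-fold higher (11.5 to 12.9). miR-21, known for its induction in reactive astrocytes, fibrosis and many tumours and encoded within the Vmp1 locus on chr11, had 14782 raw counts in 14DIV MG and 613 in P11 MG. It ranked 7 in 14DIV MG and 48 in P11 MG, with shares of 3.89% and 0.122%, a 31.9-fold difference (28.8 to 35.4). The panel entry miR-720, which is now regarded as a fragment of a tRNA and not as a miRNA, had 34262 counts in 14DIV MG and 10414 in P11 MG and was 4.02-fold higher. The sum of miR-21, miR-22, miR-23a, miR-145 and miR-720 was 22.4% in 14DIV MG and 2.96% in P11 MG.

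**Figure D3:**
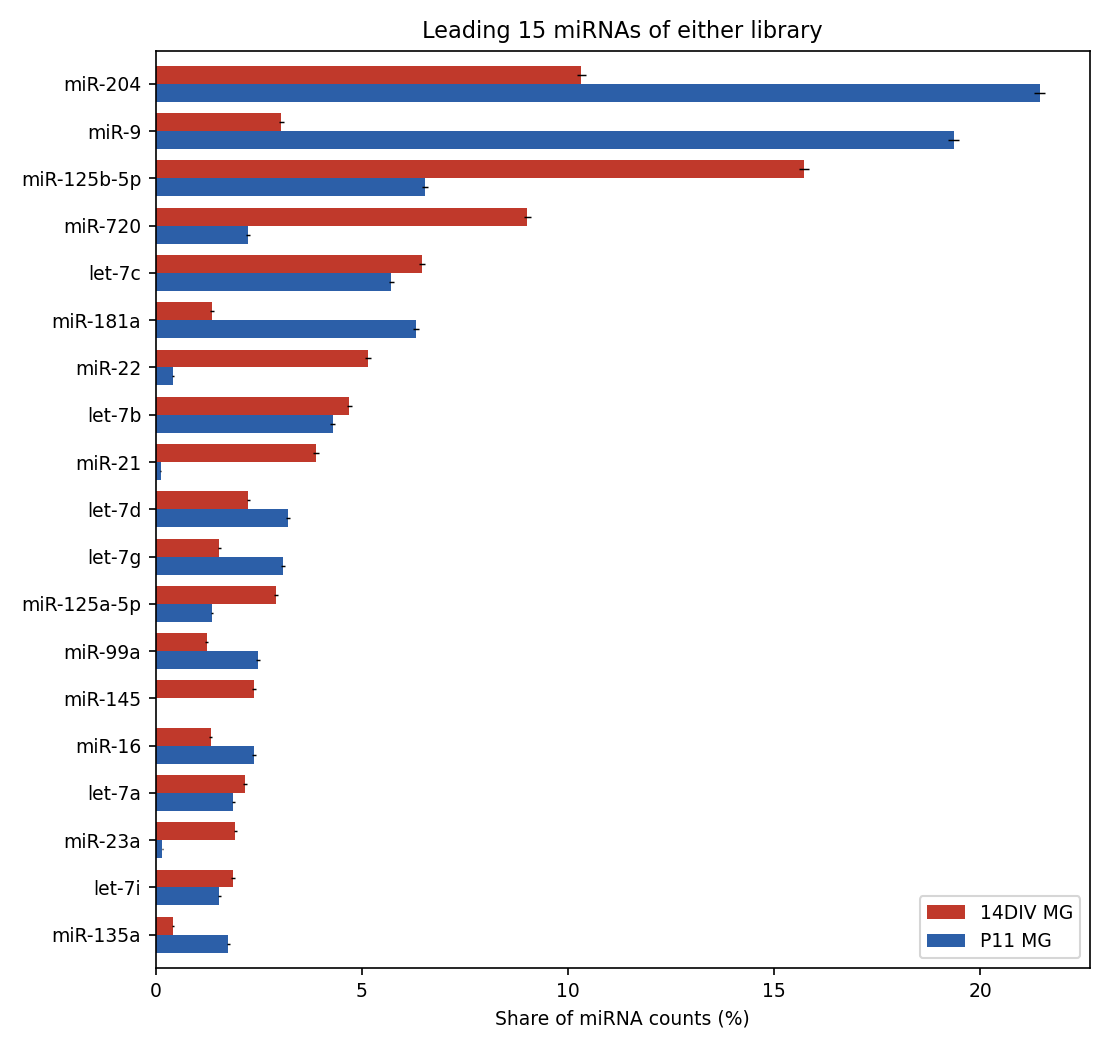
Share of miRNA counts (%) of each miRNA among the 15 highest of either library, with 14DIV MG in red above P11 MG in blue and lines for 95% counting intervals. miR-9 and miR-181a are the longest blue bars with short red partners, while miR-22, miR-21, miR-145 and miR-23a have almost no blue bar.

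The study defined 7 miRNAs as mGliomiRs, high in MG and low in neurons, from its adult MG and adult neuron libraries. Summed, they held 33.5% of the counts in 14DIV MG and 52.1% in P11 MG. Of the 7, miR-204, miR-9, miR-135a and miR-99a were at least 2-fold lower in 14DIV MG, against 18.8% of all measured miRNAs. miR-99a lay just inside that limit, with a log2 ratio of -1.002. miR-125b-5p and miR-23a were at least 2-fold higher, against 25.2%, and miR-100 lay between with a log2 ratio of 0.92. The median log2 ratio of the 7 was -1.002, against 0.04 over all 202. miR-135a had 1617 raw counts in 14DIV MG and 8193 in P11 MG, 4.20-fold lower (3.91 to 4.51).

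The 15 miRNAs that the study called shared, high in both MG and neurons, summed to 40.6% in 14DIV MG and 33.5% in P11 MG. Among them 4 were at least 2-fold higher in 14DIV MG, against 25.2% of all measured miRNAs, namely miR-22, miR-29a, miR-720 and miR-125a-5p. Another 3 were at least 2-fold lower, against 18.8%, namely miR-181a, miR-335-5p and let-7g. Both counts are near those shares. The other 8 lay between. The median log2 ratio of the 15 was 0.13 with equal totals and -0.74 with housekeeping scaling, so that its sign differed between these 2 scalings.

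The let-7 family, which shares the seed GAGGUAG and promotes terminal differentiation, made up similar shares of both libraries with equal totals. Its 9 members with miR-98 summed to 21.2% in 14DIV MG (95% counting interval 21.1 to 21.4) and 21.2% in P11 MG (21.1 to 21.3). let-7c had 24534 raw counts in 14DIV MG and 26463 in P11 MG, and let-7b had 17870 and 19881. Within the family the members spread. let-7e was 1.84-fold higher in 14DIV MG (1.73 to 1.96), let-7d 1.42-fold lower (1.37 to 1.48), and let-7g, with 5883 raw counts in 14DIV MG and 14317 in P11 MG, 2.00-fold lower (1.92 to 2.09). With housekeeping scaling let-7e had a log2 ratio of 0.01, and the other 8 members had negative values, with let-7d and let-7g past the 2-fold limit. The median log2 ratio of the family was 0.17 with equal totals and -0.70 with housekeeping scaling, and the family held 27.1% of the counts in the library titled 8DIV.

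The relatives miR-99a and miR-100 differ by 1 of 22 bases, and miR-99b shares their seed. miR-99a had 4715 raw counts in 14DIV MG and 11476 in P11 MG, which is 2.00-fold lower (1.91 to 2.10), whereas miR-100 had 3139 in 14DIV MG and 2053 in P11 MG, 1.89-fold higher (1.75 to 2.05). miR-99b had 2825 raw counts in 14DIV MG and 832 in P11 MG and was 4.36-fold higher (3.91 to 4.87). The neighbours of miR-99b within the Spaca6 locus (chr17:17830194-17830876) had log2 ratios of 1.09 for miR-125a-5p, past the 2-fold limit, and 0.88 for let-7e and 0.86 for miR-125a-3p, short of it. With housekeeping scaling these were 0.22, 0.01 and -0.0099, in the same order. The set of miR-99a and a copy of let-7c (chr16:77598940-77599693) held the lower miR-99a beside let-7c with a log2 ratio of 0.17, but let-7c has another copy on chr15 that the probe cannot tell apart. How far the probes of relatives that differ by 1 base read each other was not tested. The same holds for miR-211, encoded within Trpm1, which differs from miR-204 by 1 base and had 109 raw counts in 14DIV MG and 114 in P11 MG, close to background in both (1.63-fold higher, 0.922 to 2.36).

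The largest ratios belonged to miRNAs known from smooth muscle and mesenchyme. miR-145, which with its cluster partner miR-143 promotes the contractile state of smooth muscle, had 9100 raw counts in 14DIV MG and 83 in P11 MG, where it was not above background. Its share of 2.39% put it at rank 10 in 14DIV MG and was at least 199-fold higher than in P11 MG. miR-143 had 3167 raw counts in 14DIV MG and 24 in P11 MG, at least 69.0-fold higher. No sequence is shown for this pair.

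miR-199a-3p and miR-199a-5p, the arms of a hairpin encoded antisense to both Dnm3 and Dnm2, had 3213 and 2070 raw counts in 14DIV MG, against 54 and 32 in P11 MG, and were at least 70.0-fold and 44.9-fold higher. miR-214, which lies with miR-199a on the Dnm3os transcript (chr1:162217844-162223459), had 93 raw counts in 14DIV MG and 34 in P11 MG, and its bound of 1.52-fold did not reach 2-fold. The 5 miRNAs of this list summed to 4.61% in 14DIV MG, while 0 of 5 were above background in P11 MG, so that all passed only through 14DIV MG. They were also at background in adult MG, with 25 to 64 raw counts for miR-143, miR-145 and both arms of miR-199a. These miRNAs are the defining markers fixed for smooth muscle, pericytes and fibroblasts, and whether they came from MG or from such cells in the unsorted culture was not tested. In bulk samples more cells of a type and more RNA per cell cannot be told apart.

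The clusters of miR-23, miR-27 and miR-24 were higher in 14DIV MG in 5 of 5 members, against 25.2% of all measured miRNAs, with a median log2 ratio of 3.45. miR-23a, which the study counts among the mGliomiRs, had 7356 raw counts in 14DIV MG and 794 in P11 MG, 12.0-fold higher (10.9 to 13.2), and its neighbour miR-27a (chr8:84208563-84208896) had 2434 and 789, 3.97-fold higher (3.54 to 4.46). miR-23b, of the paralog cluster within Aopep on chr13, had 2238 raw counts in 14DIV MG and 297 in P11 MG, 10.9-fold higher (9.14 to 13.1). miR-27b of that cluster had 175 raw counts in 14DIV MG and 75 in P11 MG, at least 3.32-fold higher. It passed only through 14DIV MG and could not be called lower. miR-24, made from both clusters, had 802 raw counts in 14DIV MG and 118 in P11 MG, 14.0-fold higher (9.68 to 18.4). Members of both clusters were thus called in the same direction.

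The miR-29 family, with the seed AGCACCA and collagens among its known targets, was higher in 3 of 3 members, against 25.2% of all measured miRNAs. miR-29a had 5602 raw counts in 14DIV MG and 1297 in P11 MG, 5.44-fold higher (5.01 to 5.92). miR-29b had 893 in 14DIV MG and 260 in P11 MG (5.04-fold, 4.06 to 6.32), and miR-29c had 1353 and 672 (2.6-fold, 2.27 to 2.99). Fresh adult MG had 7585 raw counts of miR-29a, a share of 1.11%, which is closer to the 1.47% of 14DIV MG than to the 0.270% of P11 MG.

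The miR-34 family, known as targets of p53, was at background in P11 MG in all of its measured members, which passed only through 14DIV MG. miR-34a had 751 raw counts in 14DIV MG and 74 in P11 MG, at least 16-fold higher. Both arms of miR-34b had 246 and 241 raw counts in 14DIV MG, for -5p and -3p, against 87 and 83 in P11 MG, at least 4.88-fold and 4.77-fold higher. miR-34c was not measured in either library.

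Other miRNAs known from reactive or inflamed tissue were higher too. Besides miR-21, miR-221, which restrains the cell cycle inhibitor p27, had 620 raw counts in 14DIV MG and 45 in P11 MG, at least 13.1-fold higher, and its cluster partner miR-222 on chrX had 149 and 21, at least 2.75-fold. miR-146a, a brake on NF-κB signalling, had 1527 raw counts in 14DIV MG and 576 in P11 MG, 3.48-fold higher (3.02 to 4.01). miR-146b had 105 raw counts in 14DIV MG and 88 in P11 MG, short of 2-fold, and miR-155 was not measured. Of the 5 measured members of this list only miR-21 and miR-146a were above background in P11 MG. miR-221, miR-222 and miR-146b passed only through 14DIV MG, have bounds for ratios and could not be called lower. With that limit 4 of the 5 were higher, against 25.2% of all measured miRNAs, with a median log2 ratio of 1.80. With housekeeping scaling 2 of the 5 were higher, against 13.4%.

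miRNAs of the imprinted Dlk1-Dio3 locus on chr12, which are expressed from the maternal chromosome, had 24 measured of 49 on the panel. All 24 were above background in 14DIV MG but only 9 in P11 MG, so that 15 passed only through 14DIV MG, have bounds for ratios and could not be called lower. With that limit 10 of the 24 were higher, against 25.2% of all measured miRNAs. Among the 9 above background in both libraries 6 were higher and 0 lower, against 32 higher and 26 lower of all 129 such miRNAs. The list summed to 0.977% in 14DIV MG. miR-329 had 496 raw counts in 14DIV MG and 70 in P11 MG, at least 10.4-fold higher. miR-127, which lies antisense to Rtl1, had 396 and 127 (5.91-fold, 4.03 to 9.06), and miR-382 had 533 and 225 (3.55-fold, 2.74 to 4.63). With housekeeping scaling 5 of the 24 were at least 2-fold higher and 6 at least 2-fold lower, but all 6 of these were at background in P11 MG, so that their ratios are lower bounds without a direction.

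**Figure D4:**
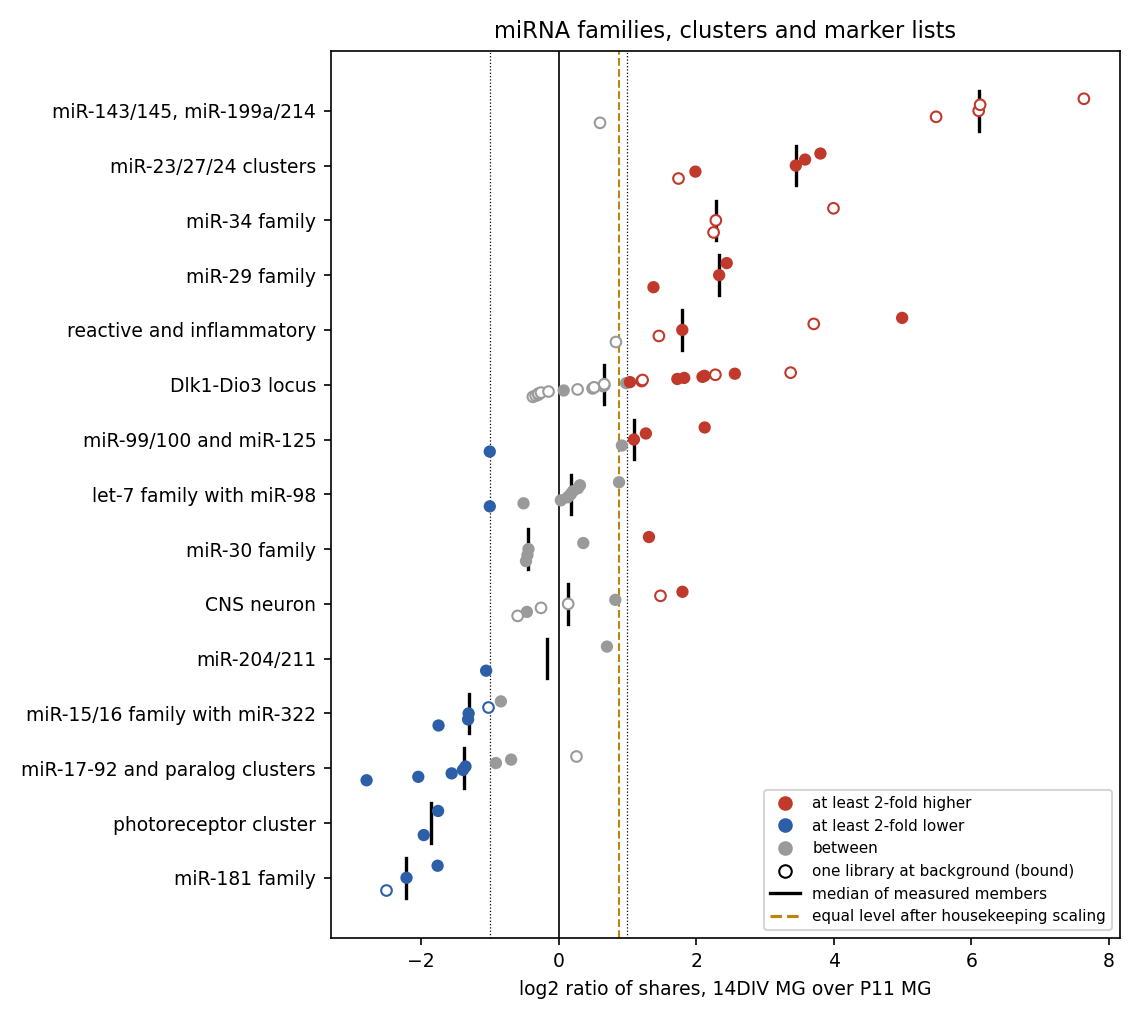
log2 ratio of shares of 14DIV MG over P11 MG (horizontal) for the measured members of 15 families, clusters and marker lists, with a bar at the median of each and open symbols where 1 library was at background. The smooth muscle and mesenchyme list lies farthest to the right (median 6.11, with each ratio a bound), the miR-181 family farthest to the left (median -2.21), and the dashed line at 0.87 marks equal levels after housekeeping scaling.

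Among the lower families, all 3 probes of the miR-181 family were at least 2-fold lower in 14DIV MG, against 18.8% of all measured miRNAs. Besides miR-181a, the probe for miR-181b and miR-181d had 38 raw counts in 14DIV MG, at background, and 250 in P11 MG, at least 5.68-fold lower. That probe passed only through P11 MG and could not be called higher. miR-181c had 91 raw counts in 14DIV MG and 327 in P11 MG, 3.39-fold lower (2.27 to 5.23). These probes cover 3 genomic clusters, on chr1, chr2 and chr8.

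The miR-17-92 cluster and its paralogs, which are driven by Myc and E2F in dividing cells, were lower in 5 of 8 measured members, against 18.8% of all measured miRNAs, and higher in none. The probe for miR-20a and miR-20b had 254 raw counts in 14DIV MG and 1991 in P11 MG, 6.93-fold lower (5.79 to 8.35). The probe for miR-17 and miR-106a had 297 and 1418, 4.12-fold lower (3.45 to 4.94). miR-19a had 130 raw counts in 14DIV MG and 389 in P11 MG, 2.62-fold lower (1.90 to 3.68), and miR-19b had 104 and 337, 2.94-fold lower (2.02 to 4.37). Within the paralog cluster in Mcm7 (chr5:138165332-138165807) the changes were smaller, with log2 ratios of -1.35 for miR-93, -0.91 for miR-106b and -0.69 for miR-25. The list summed to 0.676% in 14DIV MG and 1.66% in P11 MG.

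The miR-15/16 family, which restrains cyclins and shares the seed AGCAGCA, was lower in 4 of 5 measured members, against 18.8% of all measured miRNAs. miR-15a, encoded with miR-16 in Dleu2, had 561 raw counts in 14DIV MG and 1678 in P11 MG, 2.49-fold lower (2.17 to 2.86). miR-15b, encoded with another copy of miR-16 in Smc4, had 1032 and 3089, 2.48-fold lower (2.25 to 2.74). miR-16 itself, which both loci make, had 5088 raw counts in 14DIV MG and 11079 in P11 MG, 1.79-fold lower (1.71 to 1.88). miR-322 had 183 raw counts in 14DIV MG and 700 in P11 MG, 3.36-fold lower (2.62 to 4.33), and miR-195 fell to background with 24 counts, against 122 in P11 MG. Of the 4 lower members, miR-195 passed only through P11 MG, has a bound for its ratio and could not be called higher.

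Other miRNAs with lower shares belonged to no family above. miR-335-5p, encoded within the imprinted gene Mest (chr6:30741314-30741375), had 483 raw counts in 14DIV MG and 2355 in P11 MG, 4.13-fold lower (3.60 to 4.73), and its other arm miR-335-3p had 33 and 178, at least 3.63-fold lower. miR-130b had 91 raw counts in 14DIV MG and 457 in P11 MG, 4.98-fold lower (3.42 to 7.5), while miR-130a, with the same seed, had 1159 and 1421, a log2 ratio of 0.01. miR-210, the miRNA most tightly tied to hypoxia, had 546 raw counts in 14DIV MG and 1821 in P11 MG, 2.79-fold lower (2.43 to 3.20). miR-2141 and miR-709, whose roles are not clear, had 42 and 55 raw counts in 14DIV MG, against 396 and 270 in P11 MG.

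Other families lay in the middle of the range. The miR-30 family summed to 1.30% in 14DIV MG and 1.44% in P11 MG, with miR-30a 2.49-fold higher (2.16 to 2.87) and the other 4 members between. miR-26a and miR-26b had 154 and 242 raw counts in 14DIV MG, against 200 and 415 in P11 MG. miR-103 and miR-107, which differ by 1 base and are encoded within pantothenate kinase genes, had log2 ratios of 0.17 and 0.16. Under housekeeping scaling the medians of the miR-30, miR-26 and miR-103 families moved to -1.31, -1.06 and -0.70.

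The miRNAs of other retinal cells bear on what the libraries hold. miR-124, the leading miRNA of neurons, had 722 raw counts in 14DIV MG and 1220 in P11 MG, against 37741 in the tdTomato-negative P11 fraction, so that it made up 0.184% in 14DIV MG, 0.253% in P11 MG and 14.8% in that fraction. miR-183 and miR-96, of the cluster that photoreceptors express (chr6:30169506-30169732), had 144 and 146 raw counts in 14DIV MG, against 543 and 629 in P11 MG, 3.37-fold (2.53 to 4.55) and 3.89-fold lower (2.95 to 5.21). The third member, miR-182, was not measured. Of the 7 measured of 12 miRNAs in the neuron list, 2 were higher in 14DIV MG, close to the 25.2% of all measured miRNAs, and none were lower. The 2 higher ones were miR-132 and miR-218. miR-132, which neuronal activity induces through CREB, had 229 raw counts in 14DIV MG and 122 in P11 MG (3.48-fold, 2.25 to 5.20). miR-218 had 151 and 32 (at least 2.79-fold). Of the 7, 3 were above background in P11 MG, among them miR-132 but not miR-218. The rest passed only through 14DIV MG and could not be called lower. The share of neuronal RNA in either library was not tested beyond these values.

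miR-126-3p, the defining miRNA of endothelium, had 66 raw counts in 14DIV MG and 360 in P11 MG, 6.04-fold lower (3.74 to 9.92). Of 4 miRNAs of leukocytes and microglia, miR-142-3p had 192 raw counts in 14DIV MG and 205 in P11 MG and miR-142-5p 155 and 259, each with an interval that includes equal shares. miR-223 had 158 raw counts in 14DIV MG and 51 in P11 MG, at least 2.95-fold higher, and miR-150 had 33 and 119. None of the 3 red blood cell miRNAs, the 4 of skeletal and heart muscle or the 4 of the Hox loci was measured, and of the 5 of the miR-200 list only miR-200b was, with 77 raw counts in 14DIV MG and 121 in P11 MG.

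Entries that derive from tRNA or are of doubtful annotation took a larger part of the cultured library. The list summed to 12.2% in 14DIV MG and 3.88% in P11 MG, mostly through miR-720. The probe for miR-1937a and miR-1937b had 5696 raw counts in 14DIV MG and 1368 in P11 MG, 5.24-fold higher (4.83 to 5.68), and miR-1937c had 2057 and 613, 4.4-fold higher (3.86 to 5.02). miR-1944 had 4172 raw counts in 14DIV MG and 5477 in P11 MG, a log2 ratio of -0.10. Because these entries are part of the total, a larger share of them lowers that of every other miRNA.

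The library titled 8DIV, made from the same split experiment and set against the same P11 library, places these differences in time. The 2 comparisons share P11 MG and are given side by side. miR-21 had 613 raw counts in P11 MG, 15886 at 8 DIV and 14782 at 14 DIV, and thus was as high in the 8DIV library as in the 14DIV library. miR-145 had 83, 788 and 9100 raw counts in P11 MG, 8DIV MG and 14DIV MG, and miR-143 had 24, 445 and 3167, so that both were highest in the 14DIV library. miR-199a-3p had 54, 1509 and 3213 raw counts in that order.

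The miRNAs with lower shares also differed in their course. miR-181a had a share of 6.32% in P11 MG, 1.33% at 8 DIV and 1.36% at 14 DIV. miR-9 had 19.3%, 6.59% and 3.05% in the same order, and miR-204 had 21.4%, 11.8% and 10.3%. The miR-17-92 probes were closer to their P11 level at 8 DIV than at 14 DIV, with shares of 0.420%, 0.322% and 0.0606% for miR-20a and miR-20b and 0.296%, 0.231% and 0.0719% for miR-17 and miR-106a in P11, 8DIV and 14DIV MG. Of the 51 miRNAs at least 2-fold higher in 14DIV MG, 32 were so in the library titled 8DIV, and of the 38 lower ones 19 were. None of the 89 was 2-fold off in the other direction there.

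**Figure D5:**
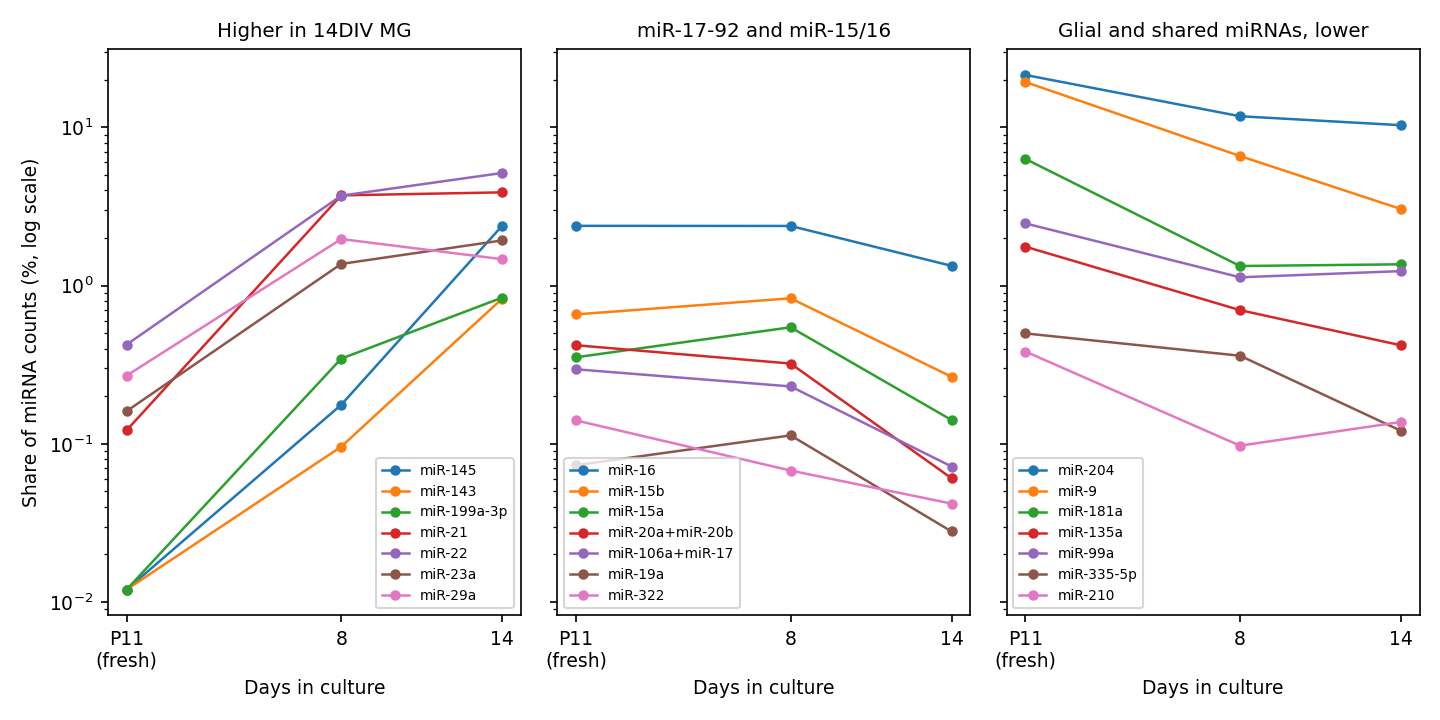
Share of miRNA counts (%, log scale) in P11 MG, 8DIV MG and 14DIV MG (horizontal, days in culture, 1 library per point) for 7 miRNAs higher in 14DIV MG (left), 7 of the miR-17-92 and miR-15/16 families (middle) and 7 other lower miRNAs (right). miR-145 stands at 0.176% at 8 DIV and 2.39% at 14 DIV, miR-21 at 3.72% and 3.89%, and miR-15a, miR-15b and miR-19a lie above their P11 share at 8 DIV and below it at 14 DIV.

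Many calls lie near the 2-fold limit and would change with a slightly different limit. Just inside it were let-7g and miR-99a, each 2.00-fold lower, miR-31 with 1.02, miR-195 with -1.03 and miR-369-3p with 1.04. Just outside it were miR-301b and miR-495, with 0.98 each, miR-423-3p with -0.98, miR-150 with -0.96 and miR-149 with 0.95. By contrast, 25 of the 51 higher and 11 of the 38 lower miRNAs differed by at least 4-fold, and 12 higher ones and 1 lower one by at least 8-fold. Of the calls, 19 of the higher and 12 of the lower are bounds against background. Over the 129 miRNAs above background in both libraries, the shares had a Spearman correlation of 0.776, given as a description of miRNAs counted in the same assay.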

How the data were processed

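Total RNA of 6 pooled samples was hybridised to the NanoString nCounter mouse miRNA panel, which counts barcoded probes without amplification. The deposited raw counts, not normalized by the authors, were the source of every level given. The authors also deposited normalized values, a score made in nSolver from counts corrected for controls, scaled to 4 housekeeping mRNAs and rounded, which served only as an alternative. For that use they were rescaled to equal totals over mouse miRNAs, which cancels their housekeeping scaling.

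The mean of the 8 negative controls was subtracted from each library, values were floored at 2 SD of the negative controls, and the result was divided by the background-subtracted sum over mouse miRNAs. A ratio of at least 2-fold was called. Intervals are exact 95% Poisson limits of the raw counts, where the lower limit of one library was set over the upper limit of the other, so they are wider than 95% and cover counting error only. The P11 pool stands in GEO as 2 samples, 1 per data set, and in the raw table as 1 column, which was used once. All 6 columns of the raw table were read. All steps ran in Python 3.11.15 (scipy 1.17.1 for intervals, pandas 2.3.3 for tables, matplotlib 3.10.9 for figures) and were tested on simulated data. Mature sequences and positions came from RefSeq.

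miRNAs were named by rule, namely the 15 with the highest share in either library, the 15 largest ratios in each direction where a library had 200 or more background-subtracted counts, the leading members of each list, and those the study discusses. The miRNAs nearest the 2-fold limit and miR-674 were named after their values were seen, as were single list members given beside their family. The members and lists were chosen with earlier results of these data known. Other scalings, floors, filters and limits were tried as alternatives.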

Additional observations from a re-analysis of the deposited data

Results flagged for a closer look

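The ratios of 4 miRNAs to P11 MG had opposite signs in the 2 cultures, each with a counting interval that excludes 0 in both. miR-15a had a log2 ratio of -1.32 in 14DIV MG and 0.63 in 8DIV MG (interval 0.50 to 0.76). miR-15b, of the same seed family, had -1.31 in 14DIV MG and 0.34 in 8DIV MG (0.24 to 0.44). miR-19a had -1.39 in 14DIV MG and 0.63 in 8DIV MG (0.33 to 0.93). miR-674 had -1.23 in 14DIV MG and 0.98 in 8DIV MG (0.63 to 1.33), with 108 raw counts in 14DIV MG, 473 in 8DIV MG and 291 in P11 MG. With housekeeping scaling the ratio of the 8DIV library was 0.05 for miR-15a, -0.24 for miR-15b, 0.04 for miR-19a and 0.40 for miR-674. The difference was not tested, because each culture is 1 library and both are set against the same P11 library.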

How the results depend on the processing

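No paired analysis was possible because each condition is 1 library. The 51 higher miRNAs became 27 with the 4 housekeeping mRNAs, 31 with Actb, 27 with Rpl19, 8 with B2m and 25 at a 4-fold limit, and stayed within 1.5 times of 51 otherwise. The 38 lower ones became 91 with the 4 housekeeping mRNAs, 83 with Actb, 90 with Rpl19, 169 with B2m, 63 with the 100 highest miRNAs, 61 at a 1.5-fold limit, 11 at a 4-fold limit and 20 when the library titled 8DIV was used. Higher miRNAs were thus 57.3% of the calls with equal totals and 22.9% with the housekeeping mRNAs. The median log2 ratio of 0.04 became -0.83 with the 4 housekeeping mRNAs, -0.69 with Actb, 0.25 with Gapdh, -0.81 with Rpl19 and -2.58 with B2m. It became -0.44 with the 100 highest miRNAs, -0.14 with the ligation controls and -0.0652 without the highest miRNA. With no floor it was 0.28, and with a filter of 50 counts 0.15. In the deposited normalized values it was 0.28 after rescaling to equal totals, which cancels their housekeeping scaling. A floor and filter at the higher of both background shares, chosen after seeing the data, gave 0.17.

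Of 58 called named miRNAs, 35 kept their direction under B2m, 53 in the rescaled deposited normalized values and 54 of 57 in the library titled 8DIV. All that were measured kept it with the other scalings, floors and filters, but at a filter of 200 background-subtracted counts only 53 of the 58 were measured. With B2m the log2 ratios turned to -1.52 for miR-125a-5p, -1.34 for miR-125b-5p, -0.0505 for miR-127, -0.81 for miR-132, -0.81 for miR-146a, -1.48 for miR-152, -0.22 for miR-1937a and miR-1937b, -0.48 for miR-1937c, -0.62 for miR-27a, -0.17 for miR-29a, -0.28 for miR-29b, -1.23 for miR-29c, -1.30 for miR-30a, -0.79 for miR-382, -0.52 for miR-434-3p, -0.61 for miR-720 and -0.49 for miR-99b. They also turned for 6 miRNAs at background in P11 MG, whose ratios are lower bounds, with -1.13 for miR-218, -1.15 for miR-222, -1.05 for miR-223, -0.88 for miR-27b, -0.36 for miR-34b-3p and -0.33 for miR-34b-5p. List medians turned to -1.52 for miR-99/100 with miR-125, -0.28 for miR-29, -0.81 for the reactive list, -0.33 for miR-34 and -1.47 for the tRNA-derived list.

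In the deposited normalized values, rescaled to equal totals, miR-15a had a log2 ratio of 2.45 and miR-1937a and miR-1937b one of -1.99. There miR-210, the only hypoxia entry, was at 1.94, miR-29a at -0.64 and miR-99b at -0.49. All 5 are among the 16 miRNAs whose deposited values are unlike their raw counts. In the library titled 8DIV, miR-15a was at 0.63, miR-15b at 0.34 and miR-19a at 0.63. The causes were not tested. Depth limits the miRNAs near background, since 53 were above it in 14DIV MG only and 20 in P11 MG only, and the level to pass was 52.8 raw counts in 14DIV MG and 106 in P11 MG.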
